A study of Homo sapiens with 24 samples.

Results

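SW1222 is an established human colorectal cancer cell line. The data described here are 6 of the 24 expression arrays of the study: 3 arrays of a SW1222 line in which DPPA3 is overexpressed under doxycycline and 3 of its control line, chosen by their sample titles. Both lines were cultured in 2D at 21% oxygen and both received 5 µg/ml doxycycline for 4 hours. The drug is therefore common to the groups, and only the DPPA3 construct differs by label. The labels do not say what the control line carries, whether either line came from 1 clone, or whether the 3 arrays of a line were separate cultures. The p-values below thus measure the spread between arrays, estimated from all 24 arrays of the study unless stated otherwise. No arrays of the overexpressing line without doxycycline were analysed here, so an effect of DPPA3 and a standing difference between these lines cannot be told apart. The same pair of lines was also grown in 3D with 5 µg/ml doxycycline for 5 days, on other arrays (3 per line), and is used below as a second reading. The other 12 arrays are untreated 3D cultures with DPPA3 knocked down or knocked out and their controls.

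DPPA3, also called STELLA or PGC7, is a small protein of oocytes, preimplantation embryos and primordial germ cells. It binds UHRF1, which brings the maintenance methyltransferase DNMT1 to newly replicated DNA, and in the early embryo it guards the maternal genome from loss of methylation. It is normally silent in the intestine. The study's title places it with HIF1A, the oxygen-regulated transcription factor, and with slow cycling and drug resistance of colorectal cancer.

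Values are RMA signals on the log2 scale, so a difference of 1 is a change of 2-fold in signal. Of the probe sets, 18062 carried a single gene symbol, and they stood for 17448 genes, all of which were tested. A gene is said to pass when its Benjamini-Hochberg adjusted p in limma, over all 17448 genes, is under 0.05. The 6 arrays had medians of 4.007 to 4.038. They correlated across genes at r = 0.9889 to 0.9917 within a line and 0.9856 to 0.9882 between lines, where genes are not independent replicates. All 13 defining markers of colorectal epithelium, CDX2, VIL1 and EPCAM among them, lay above the all-gene median of 4.082, a rough guide because probe sets differ in brightness. Of the markers of other cells, 2 of 16 for fibroblasts, 2 of 15 for leukocytes and 1 of 9 for endothelium lay above it, and none of these 40 differed between the lines at the threshold.

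DPPA3 itself was higher in the induced line. It read 4.73, 4.18 and 6.16 on the induced arrays and 2.83, 3.27 and 3.47 on the control arrays. The groups did not overlap, and induced replicate 3 stood well above the other two. The log2 difference was 1.84 (SE 0.31, n = 3 per line, adjusted p = 0.000475), or 3.58-fold. This SE, like the others given here, comes from a variance estimated over all arrays of the study, not from these lines alone. The DPPA3 values themselves had SDs of 1.02 on the induced and 0.33 on the control arrays. With the variance from the arrays of the contrast alone, the adjusted p in limma was 0.0291. Without induced replicate 3 the difference was 1.27, and DPPA3 stayed past the threshold under all 14 alternatives. On the 12 arrays of the other experiments DPPA3 read 2.55 to 3.19, near the control line's values.

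Across the genome 546 genes passed, 3.13% of those tested. Of these, 327 were higher in the induced line (1.87%) and 219 were lower (1.26%). The induced and control arrays did not overlap for 539 of the 546, which follows largely from passing the test and is no separate support. Most differences were modest: their median size was 0.58 on the log2 scale, the smallest was 0.32, and 37 reached 2-fold, 25 higher and 12 lower. Calls were more frequent among brighter probe sets, with 18, 76, 191 and 261 in successive bins of 4362 genes each, ordered from dim to bright. When the variance was estimated from the 6 arrays alone, 189 genes were higher and 125 lower. Leaving out induced replicate 3 gave 213 higher genes.

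The genes furthest above the control were led by OLFM4, a secreted glycoprotein that marks stem cells of the intestinal crypt. OLFM4 read 9.30, 9.19 and 9.40 on the induced arrays and 5.37, 5.72 and 5.36 on the control arrays, a difference of 3.81 (SE 0.14, adjusted p = 1.43e-15) or 14.1-fold. The 12 arrays of the other experiments read 2.71 to 3.78 for OLFM4, below both lines. PDE3A, a phosphodiesterase that cleaves cyclic nucleotides, read 5.54, 5.57 and 5.81 against 2.91, 3.03 and 3.11, a difference of 2.62 (SE 0.16, adjusted p = 3.07e-11). The control values of PDE3A lay within the 2.81 to 3.47 of the other experiments, and the induced ones far above.

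SMOC2, a secreted matricellular protein of the crypt stem cell signature, read 7.52, 7.61 and 7.72 against 5.60, 5.84 and 6.10. Its difference of 1.77 (SE 0.16, adjusted p = 1.19e-07) left a wide gap between the lines. LCN2, the iron-chelate binding lipocalin, was higher by 1.52 (7.41, 7.47 and 7.65 against 5.92, 5.95 and 6.09). SLPI, an inhibitor of serine proteases, was higher by 1.28, with 7.03, 7.18 and 6.39 against 5.65, 5.56 and 5.56. Induced replicate 3 was the lowest of the 3 and still above every control array. CKB, the brain-type creatine kinase that buffers ATP, was higher by 1.41, at 7.78, 7.71 and 7.76 against 6.51, 6.54 and 5.95. The 12 arrays of the other experiments read 7.33 to 8.42 for CKB. That range held the induced values, and the control values lay below it. CA8, a carbonic anhydrase-related protein without enzyme activity, was higher by 1.51, ANKH, a membrane protein of pyrophosphate export, by 1.33, and SBSPON, a secreted thrombospondin-repeat protein, by 1.31. PIK3C2A, a class II phosphoinositide 3-kinase, and VSNL1, a calcium sensor of neurons, were each higher by 1.28. ANKH and PIK3C2A lie within stretches of chromosomes 5 and 11 whose genes were higher together (described below).

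At the other end stood NELL2, a secreted protein with EGF-like repeats. NELL2 read 3.71, 2.71 and 3.42 on the induced arrays and 6.64, 6.67 and 6.72 on the control arrays. The difference was -3.40 (SE 0.19, adjusted p = 5.36e-12), or 10.5-fold lower, and the 12 other arrays read 4.98 to 7.85, so the low values were those of the induced line. TIMP1, an inhibitor of matrix metalloproteinases, read 4.22, 5.15 and 4.29 against 6.33, 6.27 and 6.12, a difference of -1.68 (SE 0.17). PLA2G2A, a secreted phospholipase of Paneth cells and inflamed mucosa, read 8.95, 8.82 and 8.82 against 10.38, 10.46 and 10.44, a difference of -1.56 (SE 0.12). The arrays of each line lay close together for this gene.

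The remaining genes of the 12 lowest were AKR1E2, an aldo-keto reductase (-1.21), UPK1A, a uroplakin of the urothelial surface (-1.20), RNF157, a ubiquitin ligase (-1.18), CYP4X1, a cytochrome P450 (-1.18), and PYGO1, a co-activator of beta-catenin (-1.14). CAMK2N1, an inhibitor of calcium/calmodulin kinase II, differed by -1.13, C1orf21 by -1.12, the long non-coding RNA SLC9A3-OT1 by -1.08 and PCP4, a calmodulin-binding peptide, by -1.06. AKR1E2 lies within a stretch of chromosome 10 whose genes were lower together, and SLC9A3-OT1 within the chromosome 5 stretch. Adjusted p-values of the genes named here in either direction ran from 1.43e-15 for OLFM4 to 0.000475 for DPPA3. All of them kept their direction and passed in every alternative that could be fitted to them.

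**Figure D1:**
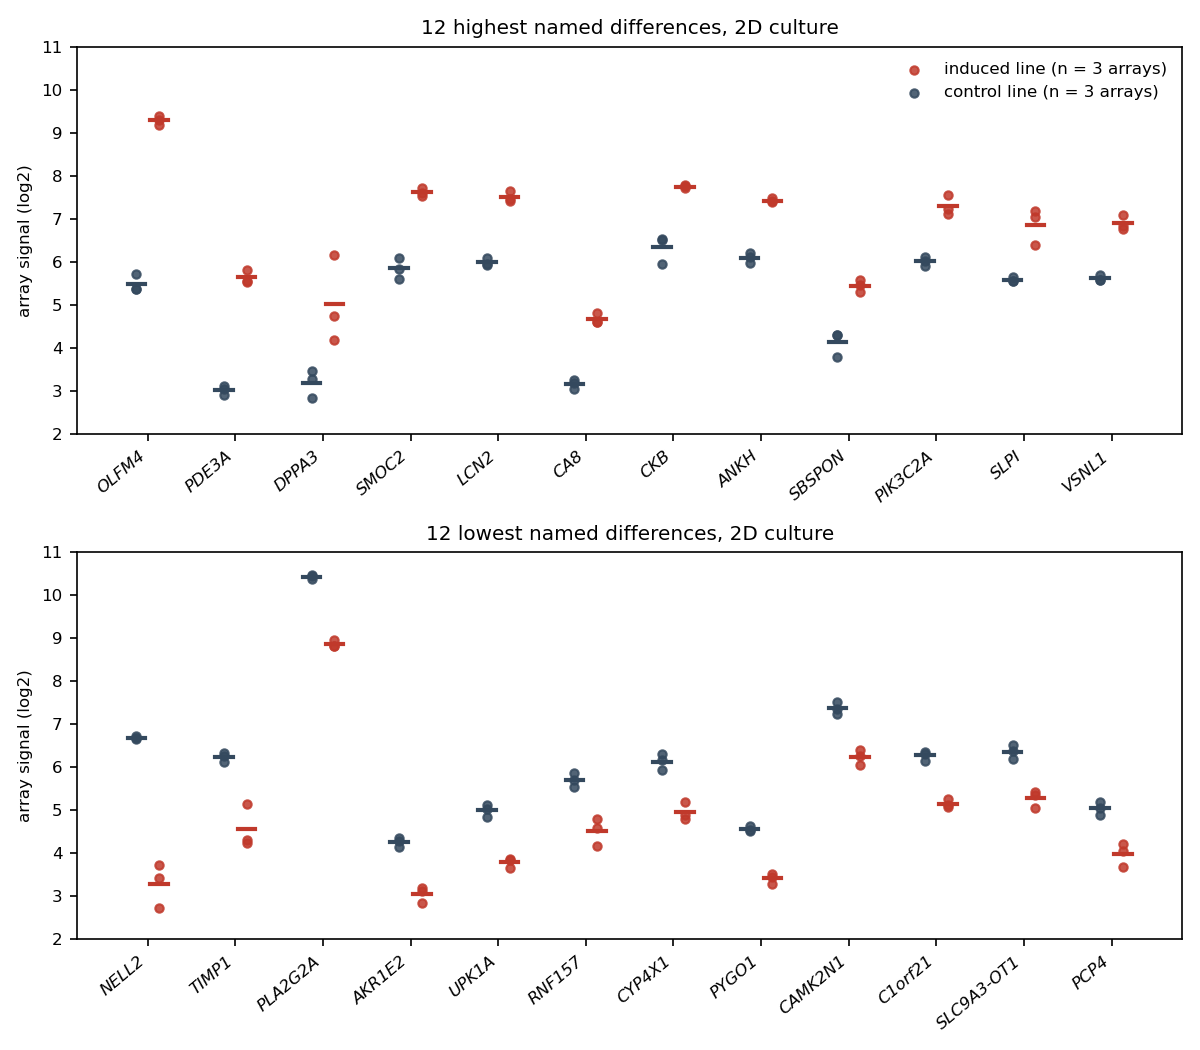
RMA signal (log2, vertical axis) of the 12 genes furthest above (top) and the 12 furthest below (bottom) the control line in 2D; each point is 1 array, each bar the mean of 3 arrays. Induced and control points do not overlap for any of the 24 genes, which were named on that condition, and the 3 induced arrays of DPPA3 spread from 4.18 to 6.16.

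The crypt stem cell and Wnt target list gave 3 higher and 0 lower genes of 26 measured. Over all genes 1.87% were higher and 1.26% lower, which is the background for the counts of this and the later lists. Wnt signalling keeps crypt cells in a stem state, and LGR5, the R-spondin receptor that marks them, is among its targets. LGR5 read 7.94, 7.87 and 8.12 against 6.98, 6.99 and 6.92, a difference of 1.02 (SE 0.11, adjusted p = 2.08e-06), beside OLFM4 and SMOC2. The median over the list was 0.05, against 0.0045 over all genes. It was 0.033 over the 8713 brighter genes that are put in chromosome order below, and 21 of the 26 members lay above the all-gene median level. Other members did not pass: AXIN2, a feedback inhibitor, differed by -0.23 (adjusted p = 0.29), ASCL2, a stem cell transcription factor, by 0.18 (adjusted p = 0.48), and MYC by -0.04 (SE 0.12, adjusted p = 0.936). The count of 3 higher genes held in every alternative that kept all genes.

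Among genes of drug efflux and drug metabolism, 5 of 34 were higher and 0 lower, with a list median of 0.07. Over all genes 1.87% were higher and 1.26% lower, and 24 of the 34 lay above the all-gene median level, where calls were more frequent. ABCB1, the P-glycoprotein pump that expels many cytotoxic drugs, read 8.29, 8.44 and 8.37 on the induced arrays against 7.17, 7.24 and 7.10, a difference of 1.20 (SE 0.11, adjusted p = 7.75e-08). The induced arrays of ABCB1 also lay above the 6.70 to 7.81 of the 12 other arrays. ALDH1A1, an aldehyde dehydrogenase that oxidises retinal and the cyclophosphamide metabolite aldophosphamide, was higher by 0.69 (9.70, 9.74 and 9.96 against 9.02, 9.08 and 9.25). TYMS, the thymidylate synthase that 5-fluorouracil inhibits, was higher by 0.60 (SE 0.11, adjusted p = 0.000855). ALDH3A1, another aldehyde dehydrogenase, was higher by 0.50, and ABCC2, an efflux pump for conjugates, by 0.58. The ABCC2 call was lost in some alternatives (adjusted p up to 0.0641), and 4 or 5 members of the list were higher across the alternatives that kept all genes.

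Cholesterol synthesis and uptake is run by SREBF2, a membrane-bound transcription factor that is released when sterols are short and binds sterol regulatory elements beside the CCAAT box of its target promoters. In this list 5 of 22 genes were higher and 0 lower (1.87% and 1.26% over all genes), with a median of 0.14. The promoter DNA of the 5 genes (the 250 bases before the RefSeq start, read 5′ to 3′ on the gene's strand, RefSeq on GRCh38.p14) is shown because they moved in 1 direction and share a known regulator. The capitals mark the sterol element TCACCCCAC or the CCAAT box CCAAT, searched on both strands (GTGGGGTGA and ATTGG are their reverse complements), and these motifs do not overlap here. HMGCS1 lies at chr5:43313413-43313662 (minus strand), CYP51A1 at chr7:92134478-92134727 (minus), LSS at chr21:46228775-46229024 (minus), STARD4 at chr5:111512536-111512785 (minus) and SREBF2 at chr22:41832855-41833104 (plus).
HMGCS1: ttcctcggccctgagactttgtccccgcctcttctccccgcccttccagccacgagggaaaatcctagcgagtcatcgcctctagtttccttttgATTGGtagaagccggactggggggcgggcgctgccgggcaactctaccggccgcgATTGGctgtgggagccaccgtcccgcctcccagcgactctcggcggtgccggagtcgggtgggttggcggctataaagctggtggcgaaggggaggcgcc
CYP51A1: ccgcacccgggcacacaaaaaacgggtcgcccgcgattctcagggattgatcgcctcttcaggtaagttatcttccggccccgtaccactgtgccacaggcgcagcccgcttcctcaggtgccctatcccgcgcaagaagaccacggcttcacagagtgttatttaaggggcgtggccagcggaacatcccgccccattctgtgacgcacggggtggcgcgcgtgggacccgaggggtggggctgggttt
LSS: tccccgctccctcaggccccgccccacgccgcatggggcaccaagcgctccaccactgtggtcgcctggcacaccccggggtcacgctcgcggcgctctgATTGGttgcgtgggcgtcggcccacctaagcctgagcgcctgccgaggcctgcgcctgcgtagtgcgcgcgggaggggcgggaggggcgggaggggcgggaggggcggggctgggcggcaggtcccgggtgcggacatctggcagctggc
STARD4: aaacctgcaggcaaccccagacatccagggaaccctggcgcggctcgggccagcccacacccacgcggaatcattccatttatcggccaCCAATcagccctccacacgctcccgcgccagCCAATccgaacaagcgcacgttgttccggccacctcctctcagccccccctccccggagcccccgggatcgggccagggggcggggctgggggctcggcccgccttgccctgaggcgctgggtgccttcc
SREBF2: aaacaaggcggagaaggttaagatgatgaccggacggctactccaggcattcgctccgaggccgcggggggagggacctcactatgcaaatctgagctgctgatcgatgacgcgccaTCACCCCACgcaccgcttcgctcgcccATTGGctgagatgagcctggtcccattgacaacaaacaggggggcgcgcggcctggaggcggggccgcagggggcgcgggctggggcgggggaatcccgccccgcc

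The SREBF2 promoter held 1 such sterol element and 1 CCAAT box. HMGCS1 and STARD4 held 2 CCAAT boxes each and LSS held 1, while the CYP51A1 window had neither motif. Of 13863 promoters of tested genes in the same table, 0.339% held the sterol element and 34.6% a CCAAT box. A match is a run of letters and says nothing of binding. Only these exact letters were searched, so a window without a match may still hold a variant of the motif.

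HMGCS1, which makes the HMG-CoA that feeds the pathway, had the largest difference of this list, 0.97 (SE 0.10, adjusted p = 1.01e-06), with 8.80, 8.82 and 9.0 against 7.96, 7.83 and 7.92. It lies within a stretch of chromosome 5 whose genes were higher together (described below). CYP51A1, the lanosterol demethylase, read 6.89, 6.6 and 6.41 against 6.04, 5.91 and 6.04, a difference of 0.63 (adjusted p = 0.00251). STARD4, a carrier of cholesterol between membranes, differed by 0.59 (6.21, 6.40 and 6.38 against 5.73, 5.70 and 5.78). SREBF2 (6.47, 6.48 and 6.45 against 5.76, 5.97 and 6.01, difference 0.55, adjusted p = 0.00975) and LSS, the lanosterol synthase (difference 0.52, adjusted p = 0.0418), were added to the named genes after their values were seen. LSS passed in 5 of 14 alternatives and SREBF2 in 13 of 14. Between 3 and 6 members of the list passed in the alternatives that kept all genes. In 2D 17 of the 22 members lay above 0, but several did not pass. SQLE differed by 0.08, FDPS by 0.15, INSIG1 by -0.13 and IDI1 by -0.19. In 3D the 1 member that passed was HMGCS1 (0.83). There CYP51A1 differed by 0.09, STARD4 by 0.14, LSS by 0.05 and SREBF2 by 0.37 (adjusted p in limma = 0.0916). Whether SREBF2 acted on these genes was not tested. The related list of fatty acid synthesis had 0 of 16 genes past the threshold and a median of 0.20.

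The hypoxia and glycolysis list bears on the HIF1A axis named in the title. HIF1A read 6.80, 6.46 and 6.83 on the induced arrays against 6.77, 6.90 and 6.75. Its difference was -0.11 (SE 0.14, adjusted p = 0.822) and the groups overlapped. Of 40 measured members, 2 were higher and 0 lower (1.87% and 1.26% over all genes), with a median of 0.13. P4HA1, a collagen prolyl hydroxylase, read 4.93, 4.90 and 5.25 against 4.30, 4.03 and 3.95, a difference of 0.93 (SE 0.13, adjusted p = 6.15e-05). In 2D both lines lay below the 6.23 to 6.82 of P4HA1 on the 12 other arrays, which were 3D cultures without doxycycline. In 3D these lines had means of 6.11 (induced) and 4.92 (control) for P4HA1. LDHA, the lactate dehydrogenase subunit of glycolysis, was higher by 0.64 (8.88, 8.85 and 9.01 against 8.30, 8.20 and 8.30) and lies within a stretch of chromosome 11 whose genes were higher together. VEGFA, an angiogenic HIF target, differed by -0.13 (adjusted p = 0.773), PFKFB3, a glycolytic regulator, by -0.56 (adjusted p = 0.11) and PDK1, which restrains pyruvate oxidation, by 0.42 (adjusted p = 0.19).

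Of 27 measured genes of the methylation machinery 2 passed, DPPA3 itself and IDH1. IDH1, an enzyme that makes the 2-oxoglutarate used by TET enzymes, was higher by 0.35 (adjusted p = 0.0206), a call that 7 of 14 alternatives kept. UHRF1, the partner of DPPA3, read 4.54, 4.72 and 4.59 against 4.77, 4.07 and 4.39, a difference of 0.21 (SE 0.17, adjusted p = 0.685) with overlapping groups. DNMT1 differed by -0.08 (SE 0.09, adjusted p = 0.801), and the oxidising enzymes TET1, TET2 and TET3 by 0.28, 0.18 and -0.32. Few genes that methylation holds silent in somatic cells passed, beside 3.13% of all genes, and such counts are not read as a result. Just 3 of the 34 germline and cancer-testis genes lay above the all-gene median level, and calls were rarer among dim genes. Of 34 germline and cancer-testis genes 1 was higher, TEX15, a meiotic factor (0.33, adjusted p = 0.0412), from 2.03 to 2.23 on the control arrays to 2.40 to 2.48 on the induced ones, at the dim end of the scale. The TEX15 call held in 5 of 13 alternatives (adjusted p up to 0.214). Of 22 imprinted genes PLAGL1, a zinc-finger gene, was higher by 0.54 and PPP1R9A, a neuronal scaffold, lower at -0.49. The interferon-stimulated list had IFI27 (0.61) and OAS3 (0.37) higher of 40, with adjusted p of 0.0437 and 0.0452, and they passed in 7 of 14 and 4 of 13 alternatives.

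Among 25 pluripotency and early germ cell genes KIT, the receptor for stem cell factor, was the single gene past the threshold. KIT read 3.86, 4.02 and 3.83 against 2.97, 3.05 and 2.52, a difference of 1.06 (SE 0.18, adjusted p = 0.000622). The lines did not overlap.

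Few genes of S phase and of mitosis passed at 4 hours, beside 3.13% of all genes. Such small counts are not read as a result about the cell cycle. Of 49 genes of S phase and DNA replication 2 were higher and 2 lower (median -0.04), and of 55 genes of G2 and mitosis 1 was higher and 1 lower (median 0.07). MKI67, the proliferation antigen, read 8.17, 8.29 and 8.17 against 8.26, 8.27 and 8.25, a difference of -0.05 (SE 0.10, adjusted p = 0.901). BLM, a helicase of recombination repair, was lower at -0.72 (6.02, 6.18 and 6.05 against 6.85, 6.73 and 6.84). TYMS, which is also a member of the replication list, was higher. The other called members all lie in stretches of neighbouring genes with a common direction: E2F8, an atypical E2F repressor (0.79), MCM10, a replication initiator (-0.70), NEK2, a centrosome kinase (0.70), and GTSE1, a microtubule-binding protein of G2 and mitosis (-0.62). Of 28 CDK inhibitors and quiescence genes CCNG2, an atypical cyclin of resting cells, was higher by 0.56 and HES1, a Notch target, lower at -0.51, while CDKN1A, the p21 inhibitor, differed by 0.03 (SE 0.15, adjusted p = 0.963). Of 29 p53 target genes 0 were higher, and GDF15, a stress cytokine (-0.67), and PLK3, a stress kinase (-0.50), were lower. GDF15 lies within a stretch of chromosome 19 whose genes were lower together. NEK2, CCNG2, HES1, MCM10 and PLK3 each lost the call in at least 1 alternative.

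Beside 3.13% of all genes, lists of rapid-response genes are too small for an absence of calls to be read as a result. None of 29 immediate early genes passed (median -0.09). JUNB, an AP-1 subunit, differed by -0.45 (adjusted p = 0.16), FOS by -0.28 (adjusted p = 0.56), EGR1 by -0.25 (adjusted p = 0.36) and JUN by 0.37 (adjusted p = 0.13). None of 16 ERK feedback genes passed, with ETV5 nearest at -0.48 (adjusted p = 0.055), and none of 31 genes of ribosome biogenesis. Of 32 NF-kappaB targets and chemokines LCN2 was higher, and NOS2, the inducible nitric oxide synthase, was lower at -0.61 (4.27, 4.40 and 4.17 against 4.78, 4.82 and 5.09). The chemokine CXCL8 differed by -0.19 (adjusted p = 0.7) and the inhibitor NFKBIA by 0.27 (adjusted p = 0.19). Of 33 genes of the unfolded protein and integrated stress response SLC7A11, the cystine importer, was lower at -0.49, and of 35 genes of mitochondrial translation and respiration SDHA, a succinate dehydrogenase subunit, was lower at -0.63 (6.90, 6.56 and 7.06 against 7.35, 7.59 and 7.48).

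Genes of mature epithelium moved in both directions. In the enterocyte list (37 measured) 3 were higher and 2 lower, beside 1.87% and 1.26% of all genes. DPP4, a brush border peptidase, was higher by 0.83 (3.64, 3.81 and 3.31 against 2.70, 2.88 and 2.71), SLC5A1, the sodium-glucose transporter, by 0.72 (6.23, 6.13 and 6.29 against 5.45, 5.57 and 5.47), and USH1C, a scaffold of microvillus tips, by 0.84. USH1C lies within the chromosome 11 stretch. CEACAM5, the carcinoembryonic antigen, was lower: 8.21, 8.30 and 8.29 on the induced arrays against 9.01, 8.98 and 8.97, a difference of -0.72 (SE 0.09, adjusted p = 1.16e-05). KRT20, a keratin of upper crypt cells, differed by -0.54 (7.09, 7.12 and 7.32 against 7.66, 7.68 and 7.80). These and CDH17, a cadherin of intestinal cells (-0.32, adjusted p = 0.0482), were 3 of the 13 defining epithelial markers, whose mean level was 8.54 to 8.61 on the induced arrays and 8.68 to 8.69 on the control arrays. The part of that level in other results was not tested.

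Of 34 goblet and enteroendocrine genes 3 were higher and 1 lower. TFF1, a trefoil peptide secreted with mucus, read 6.90, 6.98 and 6.80 against 5.93, 5.77 and 5.87, a difference of 1.04 (SE 0.12, adjusted p = 5.85e-06). MUC12, a membrane mucin, was higher by 0.98 (7.0, 7.20 and 7.03 against 6.14, 6.11 and 6.03), and MUC13 by 0.36. With the mean of its 3 probe sets in place of the brightest, MUC12 was higher by 0.57 (adjusted p = 0.00486). SPINK4, a goblet cell peptide of the Kazal inhibitor family, was lower at -0.99 (4.89, 4.50 and 4.63 against 5.59, 5.93 and 5.47). In the list of proteases and inhibitors (34 measured, 2 higher, 3 lower) SPINK4 and TIMP1 were joined by CST1, a secreted cystatin (-0.94, adjusted p = 0.0162), whose highest induced array, 5.05, lay just under its lowest control array, 5.15. CTSB, the lysosomal cathepsin B, was higher by 0.88, and SERPINB5, the maspin serpin, by 0.75. CTSB lies within a stretch of chromosome 8 whose genes were higher together.

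The NRF2 list, genes of glutathione supply and oxidant defence together with the aldo-keto reductases, had 2 higher and 5 lower of 26. Over all genes 1.87% were higher and 1.26% lower. AKR1C3, which reduces steroids and quinones, read 6.97, 6.98 and 7.03 against 7.65, 7.66 and 7.72, a difference of -0.69 (SE 0.11, adjusted p = 0.000311). AKR1C2 (-0.89, a member added after its value was seen) and AKR1E2 were lower too, and all these reductases lie in 1 stretch of chromosome 10 whose genes were lower together. GCLC, the catalytic subunit of glutathione synthesis, lies outside it and was lower at -0.51 (6.95, 6.96 and 7.02 against 7.46, 7.49 and 7.50, adjusted p = 0.00235). The oxidant-induced SRXN1 went the other way (0.52). Of 12 genes of the aryl hydrocarbon receptor list the receptor AHR (0.42) and its target ALDH3A1 were higher. Of 33 junction and integrin genes CLDN1 (0.62) and CLDN2 (0.45), claudins of tight junctions, were higher, and ITGB1, the common integrin beta subunit, was lower at -0.42, again within the chromosome 10 stretch. Of 34 BMP, TGF-beta and Notch genes HES1 and the receptor TGFBR2 (-0.33) were lower. In this and the previous paragraphs PPP1R9A, KRT20, CDH17, MUC13, CST1, SERPINB5, SRXN1, SLC7A11, AHR, CLDN2, ITGB1 and TGFBR2 each lost the call in at least 1 alternative.

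**Figure D2:**
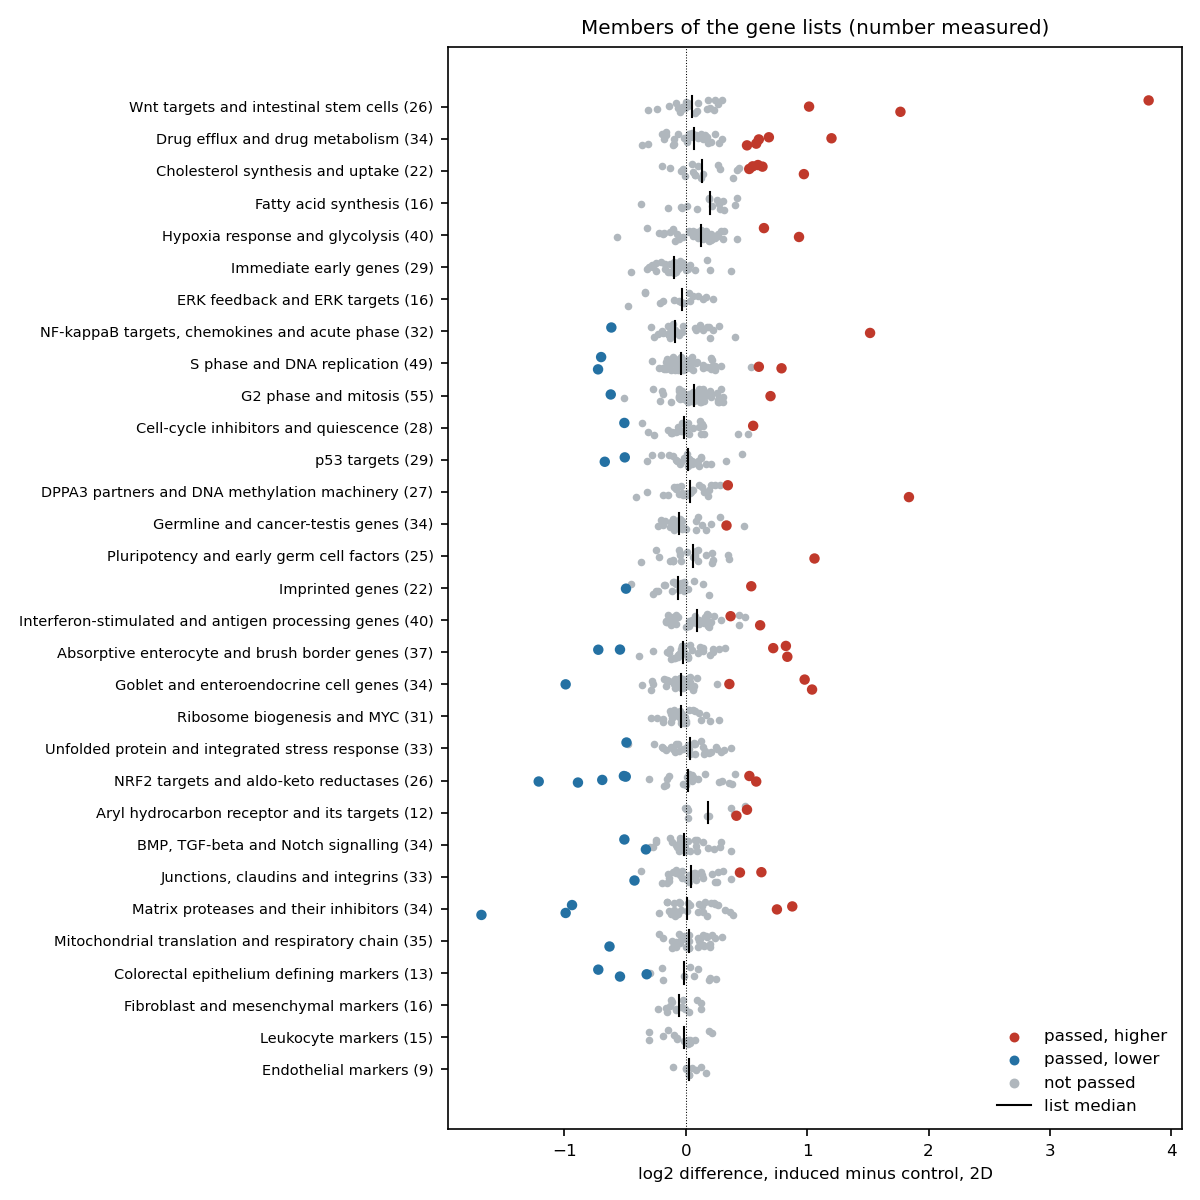
Difference between induced and control line in 2D (log2, horizontal axis) for the members of 31 gene lists; each point is a gene, red and blue points passed as higher and lower, grey ones did not, and black bars are list medians. Most members lie near 0, and the points furthest out are OLFM4 at 3.81 and TIMP1 at -1.68.

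Many called genes were neighbours on a chromosome. The 8713 genes above the median level were put in chromosome order. Stretches were kept where the running median of 21 neighbours reached 0.3 in size on the log2 scale. The running medians nearest this limit in size were 0.3017 above it and 0.2965 below it. Because the same contrast chose the 8 stretches, their 2D values are a description. They held 1146 of the tested genes (6.57%) and 218 of the 546 calls (39.9%). Inside them 19% of genes passed, and outside 2.01%, which is 328 genes.

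A stretch of chromosome 10 from ZMYND11 to SLC25A16 had 53 lower and 1 higher call among 231 tested genes and a median of -0.45. ACBD5, a tether of peroxisomes, read 6.29, 6.30 and 6.74 against 7.28, 7.44 and 7.32 there, and RSU1, a focal adhesion protein, 7.11, 7.09 and 7.15 against 7.83, 7.87 and 8.03. On chromosome 5, from EXOC3 to MAP3K1, 33 were higher and 5 lower of 148 (median 0.46). On chromosome 11, from NAP1L4 to CAT, 38 were higher and 0 lower of 253 (0.44). SWAP70, a Rac-signalling protein in that stretch, read 5.37, 5.53 and 5.59 against 4.47, 4.44 and 4.59.

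On chromosome 8, from FBXO25 to C8orf58, 20 of 94 were higher and 0 lower (0.54), MTUS1, a microtubule-associated protein, by 1.13 and PINX1, a telomerase inhibitor, by 1.11. On chromosome 1, from PHLDA3 to RNF187, 25 of 197 were higher and 1 lower (0.34), and CAPN2, a calpain protease, differed by 0.97. The lower stretches on chromosome 19, DNAJB1 to CRTC1 (0 higher and 18 lower of 112) and DDX49 to VSTM2B (0 higher and 12 lower of 55), had medians of -0.36 and -0.33, and that on chromosome 22, SAMM50 to TYMP (0 higher and 12 lower of 56), had -0.29. RFXANK, a regulator of MHC class II genes, differed by -0.88 in the second of these and ATXN10, a neuronal survival protein, by -0.96 on chromosome 22.

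The 3D arrays, which took no part in choosing the stretches but come from the same lines, gave medians of 0.32, 0.34, 0.50, -0.50, 0.27, -0.31, -0.37 and -0.25 in chromosome order, against -0.0026 over all ordered genes. Each had the sign seen in 2D. Set against the 12 arrays of the other experiments, also in 3D, the induced line departed by medians of -0.52 to 0.57 in these stretches, and the control line by 0.0083 to 0.20, where all genes had 0.057 and 0.047. Those arrays belong to other experiments without doxycycline, so this comparison also holds that difference. Why the stretches moved was not tested. Leaving all their genes out, and adjusting over the rest, gave 156 higher and 83 lower genes.

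**Figure D3:**
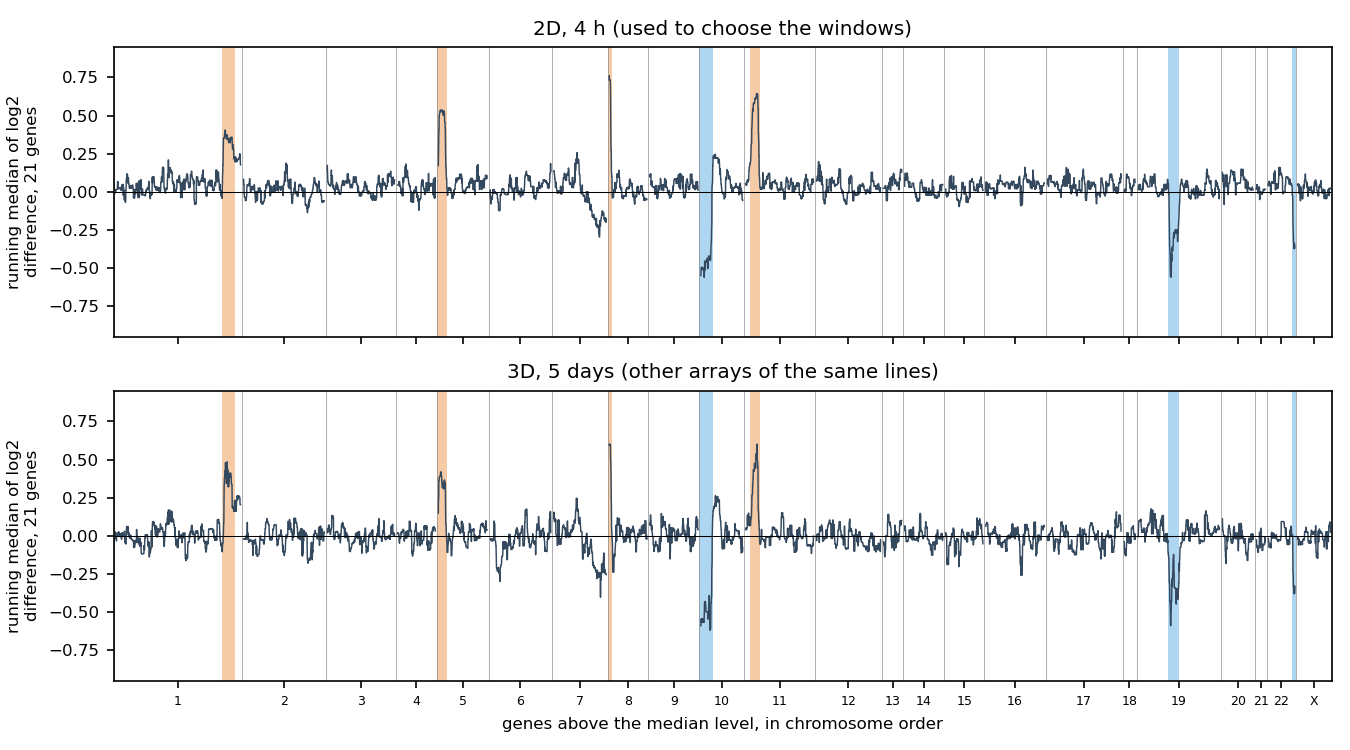
Running median of the log2 difference between induced and control line over 21 neighbouring genes (vertical axis), with genes above the median level in chromosome order (horizontal axis), in 2D (top) and in 3D (bottom). Shaded stretches are those chosen in 2D, orange where genes were higher and blue where lower; the 3D line follows the same direction in each, with -0.50 on chromosome 10.

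The 3D arrays show how far the 2D differences recurred in other cultures of these lines. Culture and time under the drug change together, so they cannot be told apart. In 3D 995 genes passed (5.7%), 511 higher (2.93%) and 484 lower (2.77%). Of the 2D calls, 298 passed in 3D in the same direction, 171 higher and 127 lower, which is 54.6% of the 2D list and 29.9% of the 3D list. Another 3 passed in opposite directions: the small nucleolar RNA SNORA67, SRRD and ASB4, named because the count is small. DPPA3 differed by 1.50 in 3D and by 1.84 in 2D, PDE3A by 2.71 and 2.62, NELL2 by -3.08 and -3.40, and TIMP1 by -1.75 and -1.68.

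A further 245 genes passed in 2D and not in 3D, and for 10 of them the difference between the effects itself passed. Over all genes that difference passed for 42 (0.241%), 24 with the higher effect in 2D (0.138%) and 18 with the lower (0.103%), and 18 of the 42 were 2D calls. The median SE was 0.174 for a difference of effects and 0.123 for a 2D difference. With the variance from the arrays of the contrast alone, 3 and 4 genes passed, and without single arrays 5 to 41 and 4 to 29, so these counts are loose. The lowest counts came without the second control array in 3D (5 higher) and without the first induced array in 3D (4 lower), the highest without the second induced array in 3D (41 and 29).

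OLFM4, SMOC2 and PLA2G2A led the genes whose effect was higher in 2D. In 3D OLFM4 read 8.30, 8.21 and 8.50 against 5.77, 5.98 and 6.18, and its effect was larger in 2D by 1.46 (SE 0.20, adjusted p = 0.000642). SMOC2 differed by 0.22 in 3D (adjusted p = 0.608), a gap of 1.55 (SE 0.23, adjusted p = 0.00146). PLA2G2A was lower in both cultures but by -3.27 in 3D, so its effects differed by 1.71 (SE 0.17, adjusted p = 3.31e-06). E2F8 had 0.79 in 2D and -0.12 in 3D (gap 0.91, adjusted p = 0.0154), and EME1, a DNA repair nuclease subunit that did not pass in 2D, 0.47 and -0.59 (gap 1.06, adjusted p = 0.017). SNORA67, which guides RNA modification, had 0.71 and -0.67 (gap 1.38, adjusted p = 0.0257), and its call in 2D held in 7 of 14 alternatives.

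KIT had the largest gap in the other direction: 1.06 in 2D and 3.08 in 3D, a difference of -2.02 (SE 0.26, adjusted p = 0.000196). FAM13A differed by 0.07 in 2D (4.73, 5.15 and 4.91 against 4.90, 5.08 and 4.59, overlapping) and by 1.46 in 3D (gap -1.39, adjusted p = 0.00216). Effects on the adhesion genes CEACAM5 and CEACAM7 also differed between cultures: CEACAM5 by -0.72 in 2D and 0.27 in 3D (gap -0.99, adjusted p = 0.000196) and CEACAM7 by -0.27 and 1.06 (gap -1.33, adjusted p = 0.0259). KRT20 gave -0.54 and 0.39 (gap -0.93, adjusted p = 0.0239), RNASE2, a secreted ribonuclease, -0.15 and 0.97 (gap -1.12, adjusted p = 0.03). The differences of OLFM4, SMOC2, PLA2G2A, KIT, FAM13A and CEACAM5 passed in all 20 alternatives, and those of the other genes of this and the previous paragraph lost the call in at least 1.

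List medians are given for the cell-cycle genes as a description. S phase genes had a median difference of -0.04 in 2D and -0.38 in 3D, and G2 and mitosis genes 0.07 and -0.39. For MKI67 the effects were -0.05 and -0.56, and for DNMT1 -0.08 and -0.57, but the difference between cultures did not pass for either gene (adjusted p = 0.195 and 0.109). VEGFA differed by -0.13 in 2D and 0.56 in 3D (adjusted p of the difference = 0.184).

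**Figure D4:**
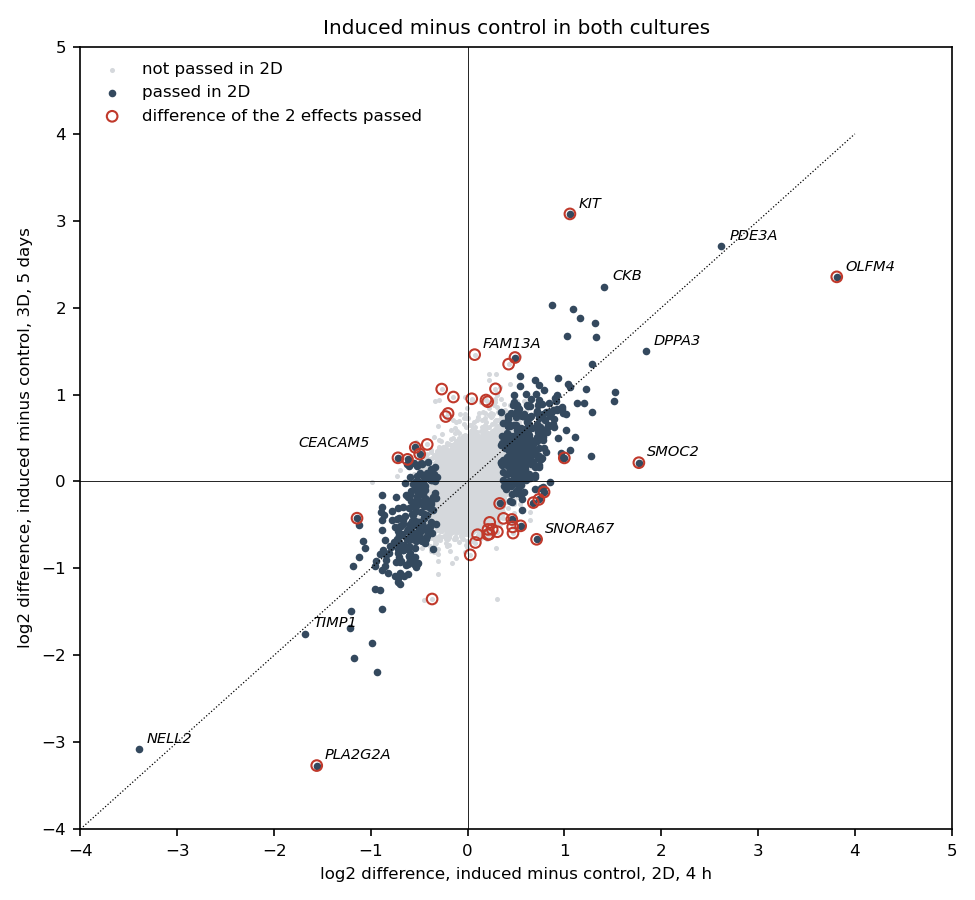
Difference between induced and control line (log2) in 2D after 4 hours (horizontal axis) and in 3D after 5 days (vertical axis); each point is a gene, dark where it passed in 2D and ringed where the difference of the effects passed. Genes on the dotted line have equal effects, as PDE3A nearly has at 2.62 and 2.71, and KIT lies far above it.

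**Figure D5:**
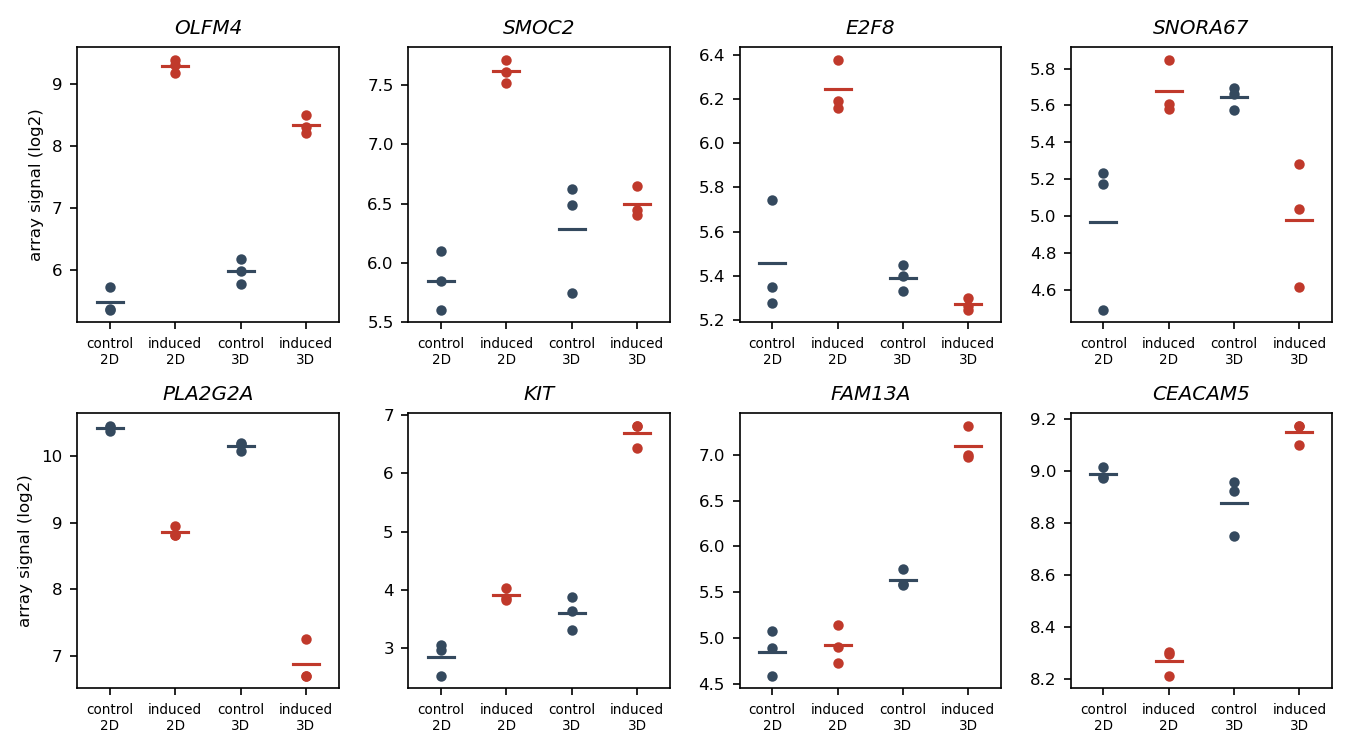
RMA signal (log2, vertical axis, own scale in each panel) of 8 genes whose effects differed between cultures; points are arrays, bars means of 3 arrays, red the induced and dark blue the control line. CEACAM5 is lower in the induced line in 2D (8.21 to 8.30) and not in 3D, and KIT is further from its control in 3D than in 2D.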

How the data were processed

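Total RNA was extracted with Trizol and hybridised as biotin-labelled cRNA to Affymetrix arrays, per the labels' protocols. The authors deposited log2 signals, computed in Partek 6.6 by RMA according to the submitters' processing notes. This method subtracts background, equalises arrays by quantiles and summarises each probe set, which compresses differences of dim genes. A genome build was not given in the sources used here. Of 20276 probe sets 1288 carried several symbols and 926 were unnamed in the annotation given, and these were left out. For the 468 genes with more than 1 probe set the brightest on average over 24 arrays stood for the gene. The number of arrays limits the precision.

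All 24 arrays entered a single linear model with 1 coefficient for each of the 9 groups (limma 3.58.1, R 4.3.3; 15 residual and 9.81 prior degrees of freedom), with 2-sided tests and Benjamini-Hochberg adjustment over 17448 genes. The fitting code was tested on simulated data. Replicate numbers did not pair the arrays. Chromosomes (for 17424 genes) came from RefSeq, GRCh38.p14.

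The 31 gene lists (970 entries, 886 measured), the naming rule, the stretches and the alternatives were chosen with earlier results of these data known. Named were DPPA3, the 12 highest and 12 lowest differences among called genes without array overlap and with a group mean above the median (no LOC or LINC symbols), up to 3 called members per list and direction, HIF1A, UHRF1, DNMT1, MKI67, CDKN1A, VEGFA, LGR5 and MYC, the 5 highest and 5 lowest differences of effects, and up to 3 called genes per stretch. Uncalled list members are given as examples, chosen after their values were seen.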

Additional observations from a re-analysis of the deposited data

Results flagged for a closer look

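These genes stand out because the difference between induced and control line was not the same in 2D and in 3D, by the interaction test in limma over all genes. The values are the 2D difference minus the 3D difference on the log2 scale. It was above 0 for PLA2G2A (1.71), SMOC2 (1.55), OLFM4 (1.46), SNORA67 (1.38), EME1 (1.06), E2F8 (0.91), SWAP70 (0.73) and TEX15 (0.58). It was below 0 for KIT (-2.02), FAM13A (-1.39), CEACAM7 (-1.33), RNASE2 (-1.12), CEACAM5 (-0.99), KRT20 (-0.93) and PYGO1 (-0.72). PYGO1 was lower in both cultures (-1.14 in 2D and -0.42 in 3D). TEX15 and SWAP70 kept the call in 5 of 19 alternatives each, the fewest among these genes.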

How the results depend on the processing

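With variances from the arrays of the contrast alone, 189 genes were higher and 125 lower in 2D, and 3 and 4 genes differed between cultures. Without the genes of the chromosome stretches, 156 were higher and 83 lower. Leaving out single arrays gave 213 to 287 higher and 156 to 202 lower genes, and 5 to 41 and 4 to 29 differences between cultures. The cause of these shifts was not tested, except that fewer arrays or genes entered. Fitting the replicate number as a block gave 343 higher and 227 lower genes, and 20 and 15 differences. Deviations of same-numbered arrays correlated at 0.055, -0.113 and -0.014, so the numbers were not taken as pairs. The other alternatives (trended robust variances, bright genes, probe set means, median centring, repeated quantile normalization) gave 270 to 351 higher and 207 to 239 lower genes. Of 93 named genes that passed, DPPA3 aside, 70 passed in every alternative, 23 lost the call in 1 or more and 0 changed sign. Without single arrays, genes that did not pass changed sign, with ranges of -0.178 to 0.0058 for HIF1A, -0.292 to 0.0023 for VEGFA, -0.4287 to 0.0044 for CEACAM7, -0.3971 to 0.034 for RNASE2, -0.135 to 0.1632 for CDKN1A (also -0.0093) and -0.06 to 0.1833 for FAM13A (also -0.0367). Calls were rarer among dim genes, and a difference of a dim gene that did not pass may have been undetectable here.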

Other observations

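A few genes outside the lists were 2-fold or more higher in the induced line and were chosen after their values were seen. SEMA3A, a secreted axon-guidance protein, read 4.59, 4.64 and 4.96 on the induced arrays against 3.49, 3.58 and 3.47, a difference of 1.22 (adjusted p = 4.08e-07). LSAMP, a neuronal adhesion molecule, differed by 1.16 (6.52, 6.38 and 6.59 against 5.42, 5.51 and 5.08) and SMARCA1, a chromatin-remodelling ATPase, by 1.06. FFAR4, a receptor for long-chain fatty acids, read 4.41, 4.63 and 4.51 against 2.99, 4.01 and 3.36, a difference of 1.06 (adjusted p = 0.00079).

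Of 129 small nucleolar RNAs 6 passed and of 148 microRNA genes 2 passed, beside 3.13% of all tested genes, so neither count is a result about these classes. SNORA14B (0.78), SNORA3A (0.71), SNORA3B (0.74), SNORA41 (0.56) and SNORA67 (0.71) were higher, and SNORD58A was lower at -0.65. The SNORA67 call held in 7 of 14 alternatives (adjusted p up to 0.267). SNORA3A and SNORA3B lie within the chromosome 11 stretch. The probe sets of MIR93 (-0.51, adjusted p = 0.00547) and MIRLET7F2 (-0.46, adjusted p = 0.031) were lower, and whether such probes read mature microRNA or longer transcripts was not tested.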
